A study of Mus musculus with 7 samples.

Results

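The endothelial cells that line the sinusoids of the liver express a recognisable set of genes, and 10 of these genes (Lyve1, Stab2, Oit3, Gpr182, Ehd3, Nr2f2, Bmp2, Cd36, Fabp4 and Cdh5) were followed here across an array study of sorted blood stem cells. They are 10 of 12393 genes measured, and 20 probe sets carried one of their names alone. The genes were chosen by their known place in this endothelium and partly selected on their high levels in 3 of the 7 arrays, so those levels are described and not tested. The study compared haematopoietic stem cells of mouse fetal livers at embryonic day 14.5 from embryos homozygous for an uncleavable form of TFIIAα-β (TFIIA nc/nc, 3 samples) with those of wild-type embryos (4 samples). The TFIIA nc/nc samples held 2, 2 and 4 pooled littermates, and the wild-type samples 1, 1, 4 and 3 embryos. Parents of both groups carried 1 uncleavable allele per the labels' protocols, which name no Cre or other tissue-specific driver, no strain and no drug. Cells were sorted, and sorted again, as lineage-negative, Sca-1+, c-Kit+ and CD150+. The antibodies of the lineage cocktail recognise T cells (CD3, CD4, CD8a), B cells (B220), granulocytes (Gr-1) and erythroid cells (TER-119), and none of them an endothelial antigen.

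Liver sinusoids are lined by a thin, perforated endothelium that clears hyaluronan, denatured collagen and other waste from the blood by scavenger receptors and rapid endocytosis. In the fetus this lining forms part of the niche in which blood stem cells expand. It shares several surface proteins and transcription factors with blood stem cells. Lyve1, Stab2 and Gpr182 encode receptors, Ehd3 an endocytic ATPase, Oit3 a secreted zona pellucida domain protein, Nr2f2 a nuclear receptor of venous identity, Bmp2 a secreted ligand, Cd36 and Fabp4 proteins of fatty acid uptake and transport, and Cdh5 the cadherin of endothelial junctions.

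Levels are given as log2 of the RMA intensity, a background-corrected and normalised brightness summarised over the probes of a set. Array medians were 3.69 to 3.82, and Pearson correlations between arrays were 0.966 to 0.991. RMA returns a value for each probe set, bright or dim, and compresses differences near the background. The targeted gene, Gtf2a1, read 5.17, 6.16 and 5.92 in TFIIA nc/nc and 3.61, 5.27, 3.86 and 5.69 in wild type, which does not check the genotype, since the uncleavable allele is not a deletion. Of the markers of the sort, Kit read 7.50, 8.08 and 8.18 in TFIIA nc/nc and 7.61, 8.31, 8.66 and 9.06 in wild type, and Slamf1, which encodes CD150, read 6.23 to 6.92 in TFIIA nc/nc and 6.12 to 6.57 in wild type. Ly6a, which encodes Sca-1, had no probe set naming it alone. The 5 measured T cell antigen genes of the cocktail were dim in every array, at 1.52 to 3.72. Samples are biological replicates per the labels, and p-values reflect the spread among them.

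In all 10 genes 3 arrays stood apart from the other 4, namely replicates 1 and 2 of TFIIA nc/nc together with wild-type replicate 1. Across the members the lowest of these 3 arrays exceeded the highest of the other 4 by 2.09 to 5.95 log2 units. No fold is given for this gap, since the low values mostly lay below the array medians, where RMA compresses differences and no detection calls were used. The same separation was present in 5.55% of all genes, and with a gap above 2 log2 units, as in all 10 members, in 0.371%. Since the members were picked partly for this pattern, nothing is read from that contrast. In the 3 arrays between 70.2% and 97.5% of all probe sets lay below the member's value, against 9.19% to 54.5% in the other 4 arrays. In bulk RNA, fewer cells of a type and less RNA per cell cannot be told apart.

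**Figure D1:**
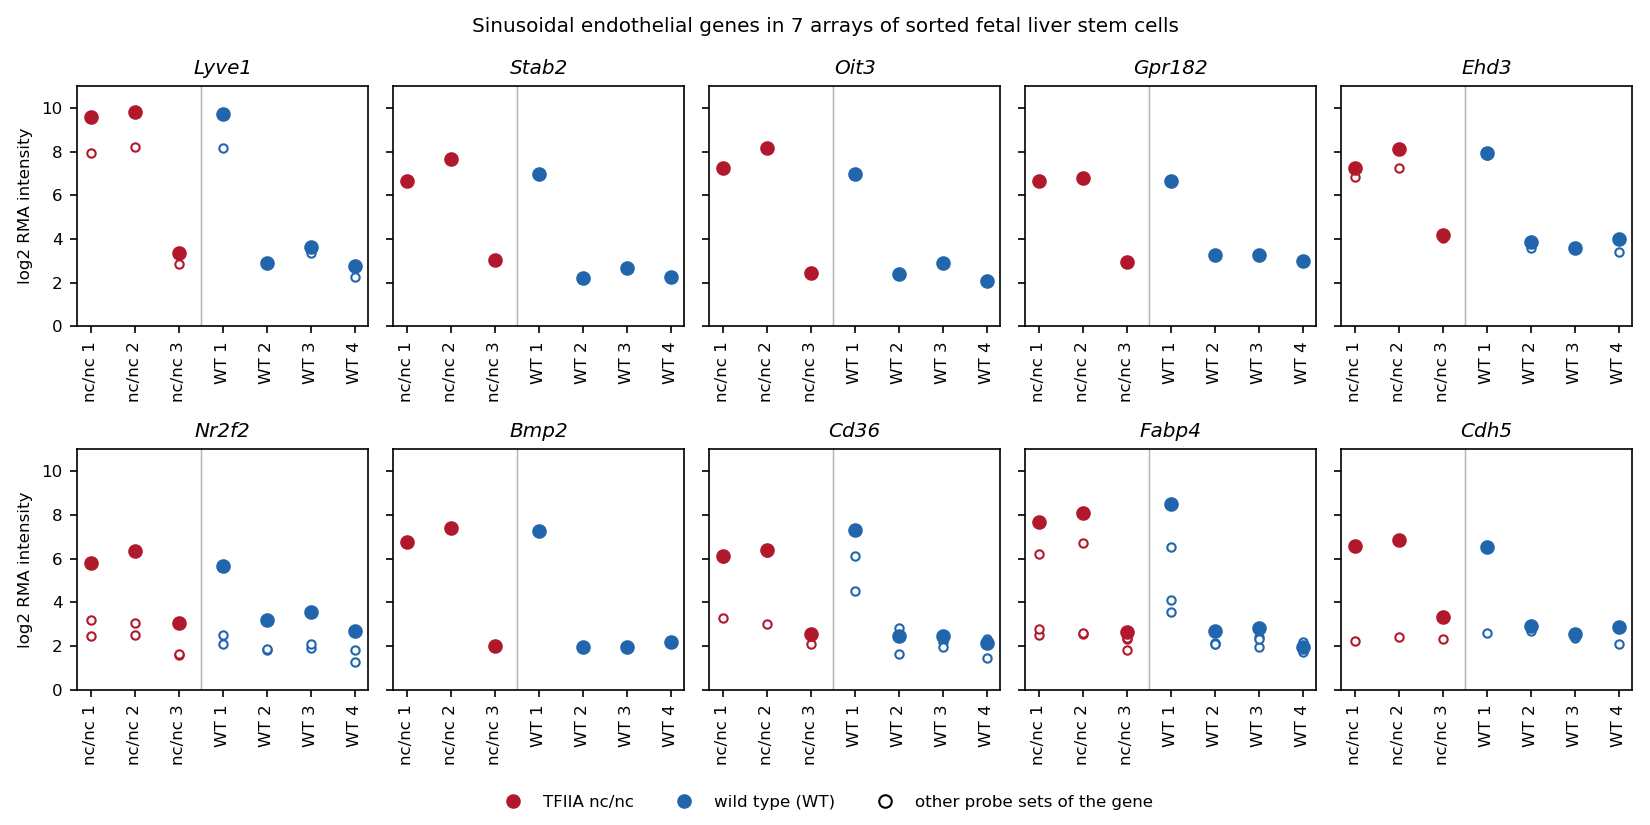
Log2 RMA intensity (vertical axis) of the 10 sinusoidal endothelial genes in each of 7 arrays, with TFIIA nc/nc in red and wild type in blue. Filled points are the brightest probe set of each gene and open points its other probe sets. In every panel 3 arrays (replicates 1 and 2 of TFIIA nc/nc and replicate 1 of wild type) lie above the other 4 arrays by at least 2.09 log2 units in the filled points.

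Among the receptors, Lyve1, which binds hyaluronan on sinusoidal and lymphatic endothelium, read 9.60, 9.83 and 3.34 in TFIIA nc/nc and 9.73, 2.91, 3.65 and 2.78 in wild type. Its gap of 5.95 log2 units was the widest of all 12393 genes. A dimmer Lyve1 probe set read 7.91, 8.19 and 2.84 in TFIIA nc/nc and 8.18, 2.89, 3.35 and 2.26 in wild type, with the same arrays high. Stab2, the scavenger receptor that takes up circulating hyaluronan, read 6.67, 7.65 and 3.03 in TFIIA nc/nc and 6.99, 2.23, 2.68 and 2.27 in wild type. Its gap was 3.64 log2 units, and TFIIA nc/nc replicate 2 was the highest array. Gpr182, an atypical chemokine receptor, read 6.67, 6.77 and 2.95 in TFIIA nc/nc and 6.65, 3.27, 3.26 and 3.01 in wild type. The 3 high arrays lay within 0.117 log2 units of each other for Gpr182, the closest of any member, and the gap to the other 4 was 3.39.

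Ehd3, which encodes a membrane-remodelling ATPase of endocytic recycling, read 7.25, 8.13 and 4.20 in TFIIA nc/nc and 7.94, 3.86, 3.60 and 3.99 in wild type. Its other probe set read 6.82, 7.27 and 4.03 in TFIIA nc/nc and 7.83, 3.60, 3.58 and 3.41 in wild type, and here wild-type replicate 1 and not TFIIA nc/nc replicate 2 was the highest. Oit3, a liver-expressed secreted protein, read 7.25, 8.15 and 2.43 in TFIIA nc/nc and 6.96, 2.40, 2.91 and 2.10 in wild type. Oit3 had the largest excess of TFIIA nc/nc replicate 2 over wild-type replicate 1 among the members, 1.19 log2 units.

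Nr2f2, the nuclear receptor also called COUP-TFII that maintains venous identity, read 5.82, 6.36 and 3.07 in TFIIA nc/nc and 5.67, 3.20, 3.57 and 2.69 in wild type. Its gap of 2.09 log2 units was the narrowest among the members. The other Nr2f2 probe sets were dim, at 1.61 to 3.18 and 1.63 to 3.07 in TFIIA nc/nc and at 1.82 to 2.53 and 1.28 to 2.09 in wild type. In the dimmer of these, wild-type replicates 1 and 3 held the same value, so the 3 arrays were not all above the rest. Bmp2, a ligand made by sinusoidal endothelium that drives hepcidin production in hepatocytes, read 6.76, 7.39 and 2.00 in TFIIA nc/nc and 7.26, 1.96, 1.97 and 2.21 in wild type. The 4 low arrays lay close together for Bmp2, at 1.96 to 2.21, and its gap was 4.55.

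Cd36, the fatty acid translocase and scavenger receptor, read 6.11, 6.42 and 2.56 in TFIIA nc/nc and 7.29, 2.45, 2.47 and 2.16 in wild type. Wild-type replicate 1 was the highest array in this probe set. A second Cd36 probe set read 6.04, 6.31 and 2.47 in TFIIA nc/nc and 6.12, 2.82, 2.21 and 2.32 in wild type, and the third, dimmer, 3.30, 3.00 and 2.09 in TFIIA nc/nc and 4.50, 1.64, 1.97 and 1.46 in wild type. Fabp4, an intracellular carrier of fatty acids best known from adipocytes and capillary endothelium, read 7.69, 8.08 and 2.64 in TFIIA nc/nc and 8.51, 2.70, 2.85 and 1.95 in wild type. Its next probe set read 6.20, 6.70 and 2.33 in TFIIA nc/nc and 6.52, 2.11, 1.94 and 2.06 in wild type. The remaining Fabp4 probe sets were dim, at 1.84 to 2.79 in TFIIA nc/nc and 1.75 to 4.09 in wild type, and wild-type replicate 1 was again the highest array in each.

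Cdh5, the VE-cadherin of adherens junctions between endothelial cells, read 6.58, 6.83 and 3.31 in TFIIA nc/nc and 6.53, 2.94, 2.55 and 2.89 in wild type. Its gap was 3.21 log2 units. The other Cdh5 probe set did not follow this pattern, with 2.26, 2.43 and 2.34 in TFIIA nc/nc and 2.60, 2.70, 2.37 and 2.12 in wild type. Counted over all probe sets, 18 of the 20 had the 3 arrays above the other 4, against 5.01% of the 20380 probe sets that name 1 gene.

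Because the members were high in the same arrays, promoters are shown, for the 4 genes found in the RefSeq promoter table of GRCm38.p6, as the 150 bases before the annotated transcription start on the gene's strand, 5′ to 3′. Capitals mark matches on either strand to core motifs of factor families active in endothelium, namely CAGGAA for ETS factors, ACAATGG for SOX factors, AGATAA for GATA factors, TGTTTAC for FOX factors and CAGAC for SMAD factors. Stab2 lies on the minus strand at chr10:87007943-87008092, Cd36 on the minus strand at chr5:17835897-17836046, Nr2f2 on the minus strand at chr7:70366747-70366896 and Ehd3 on the plus strand at chr17:73804691-73804840.
Stab2: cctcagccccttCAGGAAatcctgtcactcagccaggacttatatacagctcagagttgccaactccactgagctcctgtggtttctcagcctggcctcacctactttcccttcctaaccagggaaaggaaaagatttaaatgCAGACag
Cd36: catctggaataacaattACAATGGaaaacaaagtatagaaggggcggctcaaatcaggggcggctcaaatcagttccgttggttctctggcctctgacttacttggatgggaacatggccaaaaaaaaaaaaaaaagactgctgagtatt
Nr2f2: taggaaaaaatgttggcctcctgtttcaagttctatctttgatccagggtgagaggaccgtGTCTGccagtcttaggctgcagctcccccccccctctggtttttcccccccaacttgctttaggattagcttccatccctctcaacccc
Ehd3: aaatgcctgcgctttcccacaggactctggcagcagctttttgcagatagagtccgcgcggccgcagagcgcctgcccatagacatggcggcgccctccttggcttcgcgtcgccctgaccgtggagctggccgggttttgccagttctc
The ETS core stood in the Stab2 window alone of these 4 and in 16.4% of 27025 promoters, 1 per gene symbol. The SOX core stood in the Cd36 window alone of these 4 and in 1.86% of promoters. The SMAD core stood in the Stab2 and Nr2f2 windows and in 27.8% of promoters, and the GATA and FOX cores, found in 5.76% and 1.74% of promoters, had no match in these windows. No motif was shared by all 4 windows.

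The members did not move in parallel among the 3 arrays that stood apart. In the brightest probe sets TFIIA nc/nc replicate 2 read above TFIIA nc/nc replicate 1 in all 10 members, by 0.105 to 0.988 log2 units. Of all genes 48.1% did so. A dimmer probe set each of Nr2f2, Cd36 and Fabp4 went the other way, with differences of −0.68, −0.30 and −0.19. The members' remaining probe sets had replicate 2 higher. Against wild-type replicate 1, TFIIA nc/nc replicate 2 was higher in 8 members (46.0% of all genes) and TFIIA nc/nc replicate 1 in 4 (49.2% of all genes). The 2 members for which wild-type replicate 1 was the highest array were the fatty acid genes. Cd36 differed from it by −1.18 in TFIIA nc/nc replicate 1 and −0.87 in replicate 2, and Fabp4 by −0.82 and −0.43. For the second-brightest probe sets these differences were −0.08 and 0.19 for Cd36 and −0.32 and 0.18 for Fabp4, so TFIIA nc/nc replicate 2 was then the highest. Over all genes the SD of the difference between TFIIA nc/nc and wild-type replicate 1 was 0.413 for replicate 1 and 0.429 for replicate 2. Each of these values rests on single arrays, and the differences between them were not tested.

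**Figure D2:**
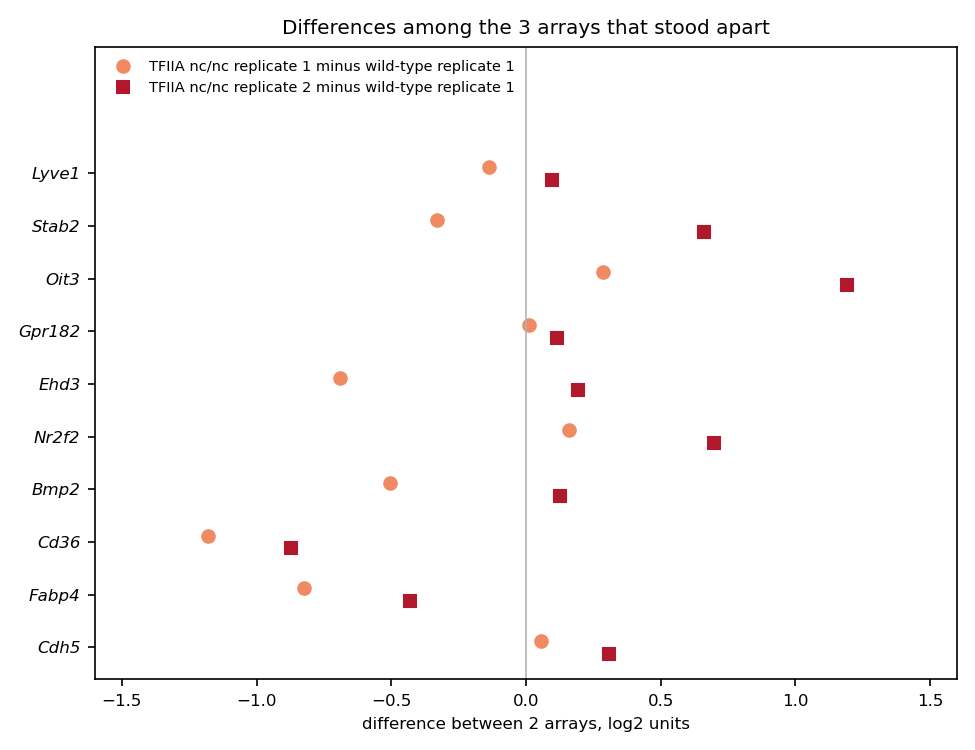
Difference in log2 RMA intensity between TFIIA nc/nc replicate 1 (circles) or replicate 2 (squares) and wild-type replicate 1, for the brightest probe set of each of the 10 genes. Cd36 and Fabp4 lie left of 0 in both comparisons, and the other members lie right of 0 for replicate 2, by up to 1.19 in Oit3.

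Among the other 4 arrays the members lay at low levels in both genotypes. TFIIA nc/nc replicate 3 read above wild-type replicates 2, 3 and 4 in 4 members, where 22.9% of all genes did so. These were Stab2 by 0.35, Ehd3 by 0.20, Cd36 by 0.09 and Cdh5 by 0.37 log2 units. It read below them in 1 member, Gpr182, where 20.8% of all genes did so, and within their range in 5. The second Ehd3 probe set also placed TFIIA nc/nc replicate 3 highest of the 4, by 0.43, whereas the second Cd36 probe set placed it within the wild-type range. So did the second Cdh5 probe set, which was dim in all arrays. The second Fabp4 probe set placed TFIIA nc/nc replicate 3 above that range, by 0.21, and a dimmer Nr2f2 probe set placed it below. The placing thus depended in part on the probe set. The arrays that stood apart came from 2, 2 and 1 embryos and the other arrays from 4 embryos in TFIIA nc/nc and 1, 4 and 3 in wild type. The wild-type samples of 1 embryo fell on either side. Samples of 2 embryos were among the arrays that stood apart, and those of 3 or 4 embryos among the others. The part of embryo number in the members' levels was not tested.

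The genotype comparison asked whether the uncleavable allele alters transcript levels in these sorted cells. All 10 members had higher means in TFIIA nc/nc than in wild type, by 1.30 to 2.82 log2 units, and 48.1% of all genes had higher means. None passed limma's test with Benjamini-Hochberg adjustment over 12393 genes (threshold 0.05), where 0.00807% of genes did. None had an unadjusted p under 0.05 either, against 4.65% of genes. The choice of members favours this direction, because 2 of the 3 arrays with high levels were TFIIA nc/nc. The groups overlapped in all 10, while they were apart in 6.3% of all genes. The median difference of the members was 1.94, against −0.01 over all genes.

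Lyve1 averaged 7.59 ± 3.68 in TFIIA nc/nc (SD, n = 3) and 4.77 ± 3.33 in wild type (SD, n = 4). The difference of 2.82 (SE 1.95) had a limma adjusted p of 0.934. For Stab2 the means were 5.78 ± 2.44 in TFIIA nc/nc and 3.54 ± 2.31 in wild type, with a difference of 2.24 (SE 1.33). Cdh5 had the smallest p of the members, with 5.58 ± 1.97 in TFIIA nc/nc and 3.73 ± 1.87 in wild type, a difference of 1.85 (SE 1.08). Its limma p was 0.119 before adjustment and 0.934 after. The differences were 2.35 (SE 1.47) for Oit3, 2.13 (SE 1.70) for Fabp4, 2.03 (SE 1.54) for Bmp2 and 1.68 (SE 1.16) for Ehd3. They were 1.44 (SE 1.32) for Cd36, 1.41 (SE 1.09) for Gpr182 and 1.30 (SE 0.85) for Nr2f2. Permuting the genotypes exactly over all 35 splits of 3 against 4 arrays gave 2-sided p-values of 0.171 to 0.429, and the smallest this design can reach is 0.0286. The spread within a genotype, with SDs of 1.77 to 3.68 in TFIIA nc/nc and 1.31 to 3.33 in wild type, was larger than or about as large as the differences. Without the 3 arrays that stood apart, which leaves 1 TFIIA nc/nc and 3 wild-type samples, the differences were −0.23 to 0.64, with 6 of 10 positive. The members were picked partly for high levels in those 3 arrays. The choice of members thus favours smaller differences without them, and nothing is read from the change. In that fit the lone TFIIA nc/nc sample is assumed to vary like the wild-type samples. Without wild-type replicate 1 alone, which the choice of members favours as well, the differences were 1.93 to 4.48. None passed (limma adjusted p = 0.433 to 0.518).

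**Figure D3:**
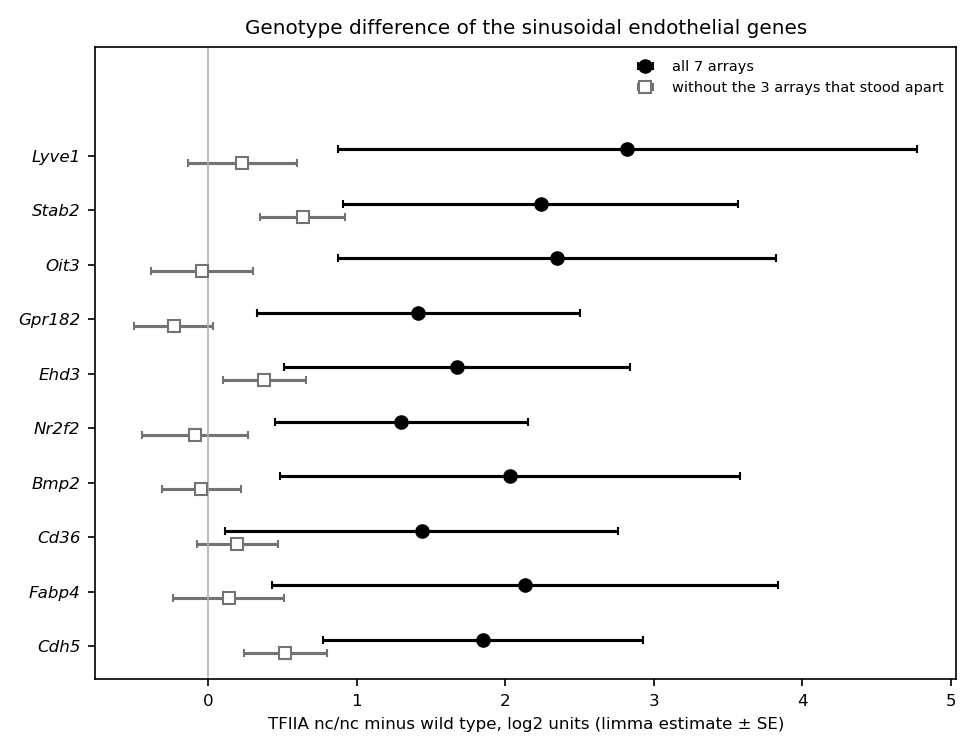
Difference in log2 RMA intensity, TFIIA nc/nc minus wild type, of each of the 10 genes with its standard error from limma. Black circles use all 7 arrays (3 TFIIA nc/nc, 4 wild type) and lie at 1.30 to 2.82. Grey squares leave out the 3 arrays that stood apart (1 TFIIA nc/nc, 3 wild type) and lie at −0.23 to 0.64. The members were picked partly for high levels in the arrays left out.

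Genes with related roles were counted in lists from which the members were left out. Each count gives how many measured genes had the 3 arrays above the other 4 by any amount, beside 5.55% of all genes. The members' own gaps were 2.09 log2 units or more. No gene of any list passed the genotype test in limma with all 7 arrays, and the median genotype difference is given beside −0.01 over all genes. Under alternatives some list genes passed. Clec1b did so without wild-type replicate 1 (difference 3.22, limma adjusted p = 0.0259), as did Vcam1 (difference 2.69, limma adjusted p = 0.0259). Vcam1 also passed with pooled samples only (difference 2.96, limma adjusted p = 0.0153), a setting that leaves out wild-type replicate 1 too. That array read 6.39 for Clec1b and 5.40 for Vcam1, where TFIIA nc/nc read 4.92 to 6.30 and 5.14 to 5.64. Leaving it out thus favours small p-values for both genes, and nothing is read from their passing. With all 7 arrays the limma adjusted p was 0.934 for both. Lgmn passed with embryo number as a covariate (difference 2.01, limma adjusted p = 0.0451). In the 4 arrays of low levels, which hold 1 TFIIA nc/nc sample, the embryonic globin Hbb-y differed by 4.65. That difference rests on TFIIA nc/nc replicate 3 at 7.93. Replicates 1 and 2 read 2.46 and 3.15, below wild-type replicate 1 at 4.63. In the list of sinusoid scavenging receptors and lectins 6 of 13 genes were so arranged (median genotype difference 0.47). Mrc1, the mannose receptor, read 8.62, 8.66 and 4.45 in TFIIA nc/nc and 9.03, 4.01, 3.20 and 3.19 in wild type. Stab1, the close relative of Stab2, read 6.77, 8.24 and 3.50 in TFIIA nc/nc and 6.90, 3.38, 3.61 and 3.56 in wild type. The clathrin adaptor Dab2 read 6.56, 7.07 and 3.39 in TFIIA nc/nc and 6.38, 2.89, 2.63 and 2.52 in wild type. These genes were high in the same arrays as Stab2. The lectin Clec1b differed from them, at 6.12, 6.30 and 4.92 in TFIIA nc/nc and 6.39, 2.81, 2.37 and 2.51 in wild type, so that TFIIA nc/nc replicate 3 was intermediate. Lgmn, a lysosomal protease, read 5.43, 6.03 and 5.03 in TFIIA nc/nc and 4.55, 3.93, 2.73 and 3.47 in wild type, and its genotypes did not overlap.

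Of other sinusoidal genes 8 of 14 had the 3 arrays highest, but only 1 by over 1 log2 unit (median genotype difference 0.12). The gap was 2.64 for the matrix protein Igfbp7, 0.88 for the cytokine receptor subunit Il6st and 0.88 for coagulation factor VIII, F8, which is made by this endothelium. Of genes common to endothelia 18 of 27 were so arranged, 10 by over 1 log2 unit (median 0.28). The widest gaps were 3.22 for the tight junction protein Cldn5, 2.96 for the transcription factor Sox17 and 2.93 for the receptor Flt4. Lmo2, a cofactor shared with blood stem cells, had the smallest genotype p of that list and read 9.89 to 9.97 in TFIIA nc/nc and 10.12 to 10.55 in wild type. Venous genes counted 3 of 5 (median 0.20), led by the apelin receptor Aplnr with a gap of 4.33, and arterial genes 7 of 13 (median 0.13), led by Nrp1 with 3.25 and Sox17. The list of partners of Nr2f2 counted 3 of 8 (median 0.02), again led by Nrp1, followed by the paralogue Nr2f1 with a gap of 1.04. Lymphatic genes counted 2 of 6 (median −0.04), which were Flt4 and, with a gap of 0.11, Reln. Prox1, the transcription factor that defines lymphatic endothelium, read 1.49 to 1.86 in TFIIA nc/nc and 1.55 to 1.96 in wild type.

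Around Bmp2, 1 of 5 other BMP ligands (median 0.01), 3 of 11 receptors and SMADs (median −0.08) and 4 of 10 targets and antagonists (median 0.19) had the 3 arrays highest. The ligand Bmp6 had a gap of 0.70 at low levels, 2.15 to 3.97 in TFIIA nc/nc and 2.20 to 3.45 in wild type. The receptor Acvr1 read 4.69, 5.31 and 3.49 in TFIIA nc/nc and 4.78, 3.03, 3.11 and 3.49 in wild type. Id3, an inhibitor of basic helix-loop-helix factors and a target of BMP signals, read 6.92, 7.11 and 5.40 in TFIIA nc/nc and 6.98, 5.17, 4.95 and 4.93 in wild type. Id3 was thus high in the same arrays as Bmp2, with a gap of 1.52. The inhibitory Smad6 had a gap of 0.30, and Id1, at 7.29 to 7.82 in TFIIA nc/nc and 6.66 to 7.42 in wild type, did not separate the arrays in that way. Hamp, which encodes hepcidin, was dim throughout, at 2.12 to 2.20 in TFIIA nc/nc and 1.88 to 2.64 in wild type.

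Around Cd36 and Fabp4, 4 of 14 other genes of fatty acid handling had the 3 arrays highest (median 0.12). Cav1, the coat protein of caveolae, read 4.99, 4.71 and 2.96 in TFIIA nc/nc and 4.57, 3.34, 2.77 and 2.66 in wild type. Fabp5, a carrier related to Fabp4, had a gap of only 0.40 and read 10.65 to 11.15 in TFIIA nc/nc and 10.14 to 11.25 in wild type. None of 6 adipocyte genes was so arranged (median 0.02), and Pparg, the adipocyte regulator that activates Cd36 and Fabp4, read 2.43 to 2.66 in TFIIA nc/nc and 2.11 to 2.99 in wild type. Of the other hyaluronan genes 1 of 7 was so arranged (median 0.03). That gene was Hmmr, with a gap of 0.29. None of 13 other EHD and endocytosis genes was (median 0.13), whereas Ehd3 was picked partly for this pattern. The paralogue Ehd1 read 6.56 to 6.95 in TFIIA nc/nc and 5.86 to 6.78 in wild type. Junction genes counted 6 of 14 (median 0.19), with gaps of 1.41 for the adhesion molecule Nectin2 and 0.99 for the scaffold Tjp1 after Cldn5, while Ctnnb1, the cadherin partner β-catenin, lay at 10.3 to 10.7 in all arrays. Of receptors for adrenomedullin, CGRP and scavenged chemokines 2 of 10 were so arranged (median 0.04), Ramp2 with a gap of 1.42 and Ackr1 with 0.59. Ramp1, a receptor subunit, had the smallest genotype p of that list, with a difference of −0.86. It read at most 8.05 in TFIIA nc/nc and at least 8.57 in wild type.

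**Figure D4:**
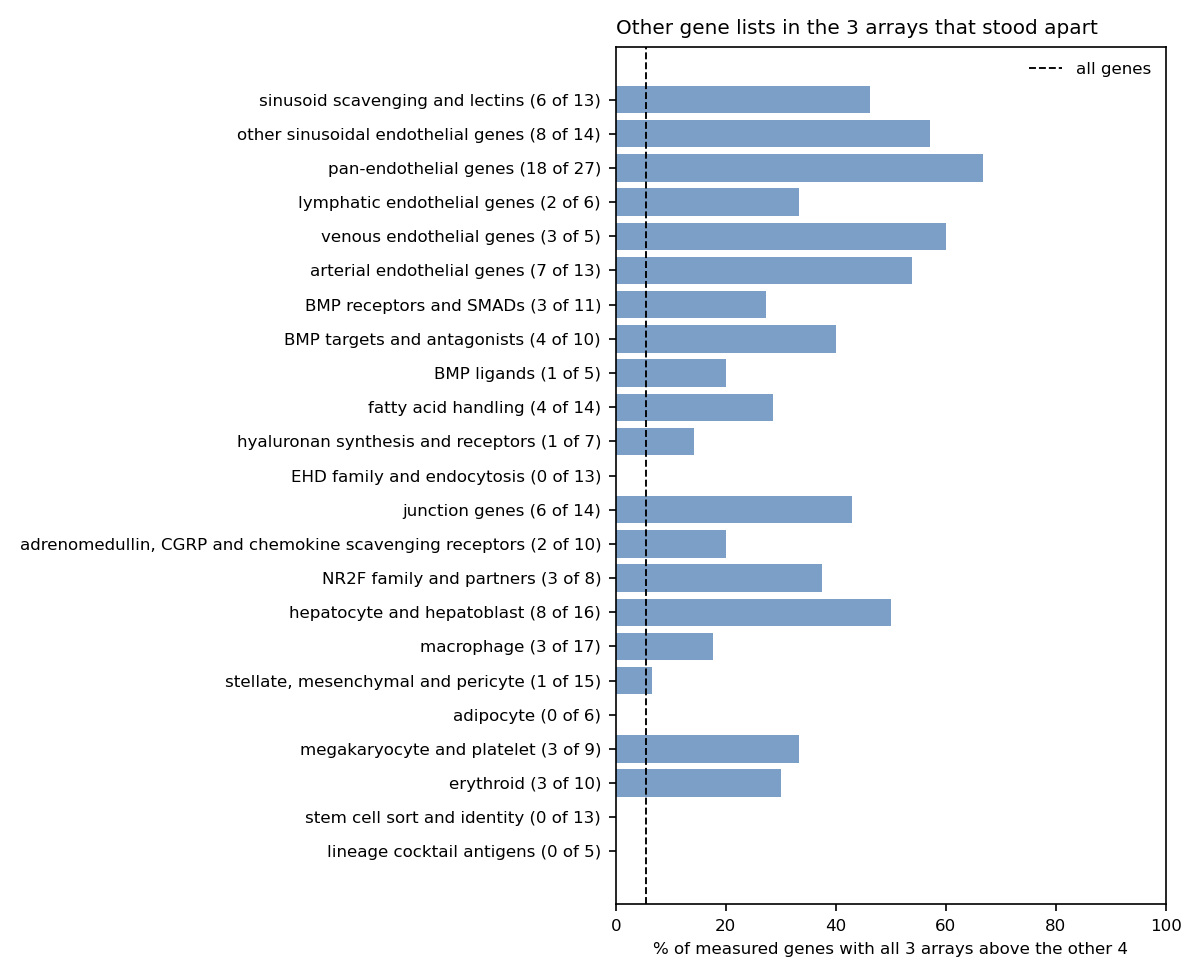
Percentage of the measured genes in each list whose values in the 3 arrays that stood apart (2 TFIIA nc/nc, 1 wild type) all lay above the other 4 arrays by any amount. Counts are in parentheses, and the members were left out. The dashed line marks 5.55%, the share over all genes, and the bars run from 0 in adipocyte, stem cell, lineage and endocytosis genes to 66.7% in pan-endothelial genes.

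Markers of other cells moved with the members in part. Of 16 hepatocyte and hepatoblast genes 8 had the same 3 arrays highest, 2 by over 1 log2 unit (median genotype difference 0.37, 14 of 16 higher in TFIIA nc/nc). Alb, which encodes albumin, read 6.62, 7.44 and 2.28 in TFIIA nc/nc and 6.12, 2.74, 1.84 and 2.52 in wild type. Afp read 7.91, 8.84 and 4.76 in TFIIA nc/nc and 6.58, 4.32, 3.05 and 4.50 in wild type, with a gap of 1.82. The summed intensity of that list was 604, 961 and 257 in TFIIA nc/nc and 410, 273, 279 and 300 in wild type. The sum was thus highest in the same 3 arrays as the members. In contrast, 1 gene of the list, Krt18, was lowest in them. Apob was dim throughout, at 2.08 to 2.48 in TFIIA nc/nc and 2.03 to 2.34 in wild type. Of 17 macrophage genes 3 were so arranged, Mrc1, Mertk and Vcam1 (median 0.31, 14 of 17 higher in TFIIA nc/nc). The gap was 0.26 for Mertk and 0.03 for Vcam1, and TFIIA nc/nc replicate 3 was not low in them as in the members. TFIIA nc/nc replicates 1 and 3 read 3.98 and 3.72 for Mertk and 5.17 and 5.14 for Vcam1. The summed intensity of the macrophage list was 605 to 809 in TFIIA nc/nc and 134 to 791 in wild type. Mrc1 is also counted among the scavenging receptors, and without it the sums were 213, 405 and 602 in TFIIA nc/nc and 269, 340, 125 and 199 in wild type. The macrophage sum was then highest in TFIIA nc/nc replicate 3, where the members were low. C1qa, a defining macrophage gene, read 2.24, 3.97 and 5.01 in TFIIA nc/nc and 3.26, 4.30, 2.19 and 3.50 in wild type, and was thus highest in an array where the members were low. Stellate and mesenchymal genes counted 1 of 15 (median 0.06), with sums of 105 to 174 in TFIIA nc/nc and 99.7 to 170 in wild type, and megakaryocyte genes 3 of 9 (median 0.03), with 258 to 291 in TFIIA nc/nc and 218 to 361 in wild type. Erythroid genes counted 3 of 10 (median 0.06), with 356 to 558 in TFIIA nc/nc and 218 to 415 in wild type. The top of that range rested on Hbb-y, which read 2.46, 3.15 and 7.93 in TFIIA nc/nc and 4.63, 3.60, 2.64 and 3.59 in wild type, and without it the sums were 313 to 425 in TFIIA nc/nc and 212 to 391 in wild type. Stem cell genes ran the other way in part and by less. None of 13 was highest in the 3 arrays and 8, Kit, Procr, Hlf, Mllt3, Gfi1, Hoxa9, Myb and Ptprc, were lowest in them, against 4.87% of all genes (median genotype difference −0.28, 10 of 13 lower in TFIIA nc/nc). In these 8 the lowest of the other 4 arrays exceeded the highest of the 3 by 0.10 (Kit) to 0.37 (Gfi1) log2 units. Slamf1, Meis1, Gata2, Mecom and Cd34 did not separate the arrays in either direction. The summed intensity of the stem cell list was 3463, 3682 and 4582 in TFIIA nc/nc and 3688, 4929, 4958 and 5611 in wild type, while that of the 10 members was 1817, 2506 and 84.2 in TFIIA nc/nc and 2268, 74.4, 82.6 and 66.8 in wild type. The part of these cell types in the members' levels was not tested.

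The 10 other genes whose profile over the 7 arrays, centred on the gene's own mean, lay nearest to the average centred profile of the members were found by root mean square distance in log2 units. They were Fam167b at 0.236, Aplnr at 0.269, the lipid phosphate phosphatase Plpp3 at 0.284, the basement membrane protein Nid1 at 0.313 and the scaffold Akap12 at 0.336. Then came the semaphorin and VEGF co-receptor Nrp1 at 0.353, the VEGF receptor Kdr at 0.381, Plpp1 at 0.382, Dab2 at 0.425 and the endothelial lectin Clec14a at 0.440. Among the members themselves Stab2 lay closest to this average, at 0.225, and Lyve1 farthest, at 1.04. Kdr read 6.66, 7.87 and 3.26 in TFIIA nc/nc and 7.39, 3.04, 3.89 and 3.20 in wild type. It was high in the same 3 arrays, with TFIIA nc/nc replicate 2 above the others as in 8 of the members.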

How the data were processed

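The deposited values were RMA intensities per probe set made by the authors, 1 array per sample. The submitters' processing notes name Expression Console, with no version among the sources used here. They were on a linear scale, and log2 was taken with no pseudocount. Of 22690 probe sets, 64 controls were left out, 20380 named 1 gene, 691 several and 1555 none in the platform annotation. Symbols were updated through Entrez identifiers with a RefSeq table of GRCm38.p6, which matched 12369 of 12393 genes. The probe set with the largest mean across arrays stood for each gene.

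The genotype comparison used limma 3.58.1 (lmFit, then eBayes) under R 4.3.3 with no covariate and 2-sided p-values adjusted by Benjamini-Hochberg over all genes. The fit was tested on simulated data. The number of arrays limits the precision, and detection calls and scan dates were not used. Samples were grouped by their titles. The labels give the genotypes the same replicate numbers but no shared litter or day, and deviations from the group means of same-numbered samples correlated at 0.382, −0.194 and 0.106, so the numbers were not taken as pairs. The members, lists and motifs were chosen with earlier results of these data known. Beside the members, the genes named were the 10 nearest profiles and, in each list, up to 3 with the widest gap and up to 2 with the smallest genotype p. Any further gene was picked with its values in view. Alternatives covered the probe set, a filter on dim genes, a pseudocount of 16, the normalization, array weights, the number of embryos, a replicate block, pooled samples and leaving out arrays. The list sums without Mrc1 or Hbb-y were added after seeing the data. Figures come from matplotlib 3.10.9 (Python 3.11.15).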

Additional observations from a re-analysis of the deposited data

Results flagged for a closer look

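Wild-type replicate 1 lay far above the other 3 wild-type arrays in 9 of the 10 members. It read 9.73 for Lyve1, 6.99 for Stab2, 6.96 for Oit3, 6.65 for Gpr182, 7.94 for Ehd3, 7.26 for Bmp2, 7.29 for Cd36, 8.51 for Fabp4 and 6.53 for Cdh5, while the other wild-type arrays lay between 1.95 and 3.99 for these genes. The gap to the nearest wild-type array was 83.2% to 95.4% of the range in these 9 genes and 70.3% in Nr2f2. The members were selected partly on their high levels in this array, so these distances are a description and no outlier test, and nothing is read from their number.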

How the results depend on the processing

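No member passed the threshold in limma under any of the 18 alternatives (adjusted p of 0.32 to 1.0), and of 177 member differences under them 173 kept their sign. The exceptions arose when the 3 arrays that stood apart were left out, where Nr2f2 differed by −0.0865, Gpr182 by −0.23, Bmp2 by −0.0446 and Oit3 by −0.0403. Leaving out each array in turn gave member differences of 0.66 to 4.95. With a pseudocount of 16, which weighs dim values less, they were 0.68 to 2.15, and Cd36 moved the most, to 0.68 against 1.44, with Stab2 at 1.31, Bmp2 at 1.17, Cdh5 at 1.10, Nr2f2 at 0.80, Fabp4 at 1.33 and Gpr182 at 0.94 also moved by over 1.5 times. An unadjusted limma p under 0.05 was reached by all 10 members without wild-type replicate 1, where 1048 of 12393 genes reached it. Without TFIIA nc/nc replicate 3 it was reached by 9 members (621 genes), and with embryo number as a covariate by 8 (975 genes). With pooled samples only 6 members reached it (1457 genes), and with array weights 1 (929 genes). The members were picked partly for high levels in 2 TFIIA nc/nc arrays and wild-type replicate 1. Leaving out wild-type replicate 1, as pooled samples only also does, or TFIIA nc/nc replicate 3 thus favours small p-values. Nothing is read from these counts. With a replicate block the member differences were 0.94 to 2.16, and the pairing changed no call. Wild-type replicate 4 has no TFIIA nc/nc counterpart, and these differences equal those with that array left out. The count of all genes past the threshold, 1 in the comparison reported, was 0 among the 6196 genes above the median level (392 at an unadjusted p under 0.05). It was 2 with embryo number as a covariate and 3 with pooled samples only. When each array was left out it was 1 to 3, with 3 without wild-type replicate 1. The fit on only the 4 arrays holds 1 TFIIA nc/nc sample, so its count is not given. The 3 arrays lay above the other 4 in all 10 members also with quantile or cyclic loess normalization and when the probe set was picked by interquartile range. Nr2f2, Cd36 and Bmp2 did not enter the fit of genes above the median level. Signal near the background limits what the 4 low arrays can show.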

Other observations

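Outside the lists and the 10 nearest profiles, the genes with the widest separation of the 3 arrays from the other 4, chosen after their values were seen, were Mest and Sparc. Mest, an imprinted gene expressed from the paternal allele in embryonic tissues, read 8.98, 9.52 and 3.42 in TFIIA nc/nc and 8.97, 3.34, 4.00 and 3.60 in wild type, and its gap of 4.97 log2 units was second to that of Lyve1. Sparc, a matrix-binding glycoprotein, read 8.64, 9.44 and 4.36 in TFIIA nc/nc and 9.28, 4.92, 3.60 and 3.61 in wild type, with a gap of 3.72.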
